A study of Mus musculus with 12 samples.

Results

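The subject was the group of 5 mouse T cell receptor beta variable segments TRBV12-1, TRBV15, TRBV16, TRBV24 and TRBV26, known in the older nomenclature as members or all of the Vbeta families 5, 12, 11, 17 and 3. They were chosen by name, as the segments whose T cells are known targets of endogenous mouse mammary tumour virus (Mtv) superantigens. No value measured here entered the rule, but earlier results of these data were known when it was set. Every productive TRB contig with one of these V labels was taken, leaving out contigs with the joint label TRBV12-2+TRBV13-2. The 6 receptor libraries held 7257 productive TRB contigs with 22 V labels. Of these contigs, 1122 carried a label of the group, in 1109 of the 6826 cells with a productive TRB. Contigs were found for 4 of the 5 segments and none for TRBV24.

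C57BL/6 mice, either 5xFADTg or NonTg, gave the CD45+ immune cells, which had been sorted from brain parenchyma or from meninges (the membranes covering the brain). The 5xFAD transgenes encode mutant human amyloid precursor protein and presenilin, driven in neurons, and NonTg mice lack them. Parenchyma gave 2 libraries per genotype and meninges 1 library per genotype. The labels name no individual animals and no ages, so p-values measure the spread between libraries, which may be technical in part. Transcriptome samples of the same sorts were not analysed here, so the receptors carry no CD4 or CD8 assignment.

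A superantigen bridges an MHC class II molecule and the outer face of the V-beta domain, largely without regard to the CDR3, the loop that reads the peptide. T cells whose V segment is bound by a self superantigen of an integrated Mtv provirus are removed in the thymus. Removal of the segments described here depends on the class II molecule I-E, and C57BL/6 mice express I-A but no I-E, so T cells with these V segments are not removed this way in this strain. An intact V gene is needed too, since a pseudogene gives no receptor. A second set of segments is known to be removed in mice with the Mtv-7 provirus, which C57BL/6 lacks.

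The germline sequences below show where each V segment joins the CDR3 and how TRBV24 differs. They are the last 45 bases of the GENCODE M21 transcript of each gene, read 5′ to 3′ on the plus strand of chromosome 6 (GRCm38, the assembly called mm10). Capitals mark the cysteine codon that opens the CDR3, except in TRBV24, where they mark a stop codon.
TRBV12-1: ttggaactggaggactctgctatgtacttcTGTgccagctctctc
TRBV15: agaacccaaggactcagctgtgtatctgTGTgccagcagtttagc
TRBV16: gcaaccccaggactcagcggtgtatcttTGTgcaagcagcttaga
TRBV24: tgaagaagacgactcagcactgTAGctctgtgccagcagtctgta
TRBV26: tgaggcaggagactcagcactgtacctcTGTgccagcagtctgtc

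Trbv12-1 spans chr6:41113550-41114067, Trbv15 chr6:41141188-41141658, Trbv16 chr6:41151740-41152230, Trbv24 chr6:41218091-41218557 and Trbv26 chr6:41227505-41227993. GENCODE annotates Trbv24 as a TR_V_pseudogene and the other 4 as TR_V_gene. In the Trbv24 transcript the TAG lies in the frame of the CDR3, 2 codons before the cysteine codon. The other 4 transcripts were open from an in-frame ATG to the CDR3. The TRBV24 and TRBV26 ends had 39 of 45 bases in common, and at the place of the TRBV24 stop the TRBV26 end reads TAC, marked here in capitals.
TRBV26: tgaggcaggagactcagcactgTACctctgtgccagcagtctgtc

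The libraries held 385 to 1931 cells with exactly 1 productive TRB each, 6395 in all. Cells with 2 or more productive TRB, which can be doublets, numbered 431 and were not used for clonotypes. A clonotype was defined per library by a pair of CDR3 nucleotide sequences, from the TRB and from the TRA chain with the highest UMI count (unique molecular identifiers, one per captured RNA molecule). Only cells that had a TRA and a single TRB entered. There were 3108 clonotypes, 286 to 784 per library. Of 7034 barcodes, 21 occurred in 2 or more libraries, and 0 of these carried the same TRB in them. No contig of a gamma, delta or immunoglobulin chain was listed.

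Used members were neither rare nor dominant. Averaged over the 6 libraries, TRBV12-1 made up 5.42% ± 1.16 of clonotypes (SD, n = 6), TRBV16 5.17% ± 1.11, TRBV26 3.26% ± 0.655 and TRBV15 2.89% ± 0.521. Among the 23 labels ranked by this mean, TRBV24 included, they stood at places 6, 10, 15 and 17. TRBV12-1 and TRBV16 exchanged places between libraries, with TRBV12-1 higher in 3 of 6. TRBV26 was above TRBV15 in 4 of 6 libraries, and TRBV16 above TRBV26 in 5 of 6. Ranges of all these neighbours overlapped, while TRBV15 and TRBV24 did not.

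TRBV24 was absent among the contigs with a V call. None of the 8288 TRB contigs with a V call, productive or not, carried its label, and a count of 0 allows a share of up to 0.0362% of them. With the stop in its germline frame, a 0 among productive contigs was set beforehand. A further 2644 TRB contigs had no V call and lie outside this count. Whether the reference behind the V calls held TRBV24 was not checked. The limit and the intervals given below cover counting error only. TRBV24 therefore enters no later comparison.

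**Figure D1:**
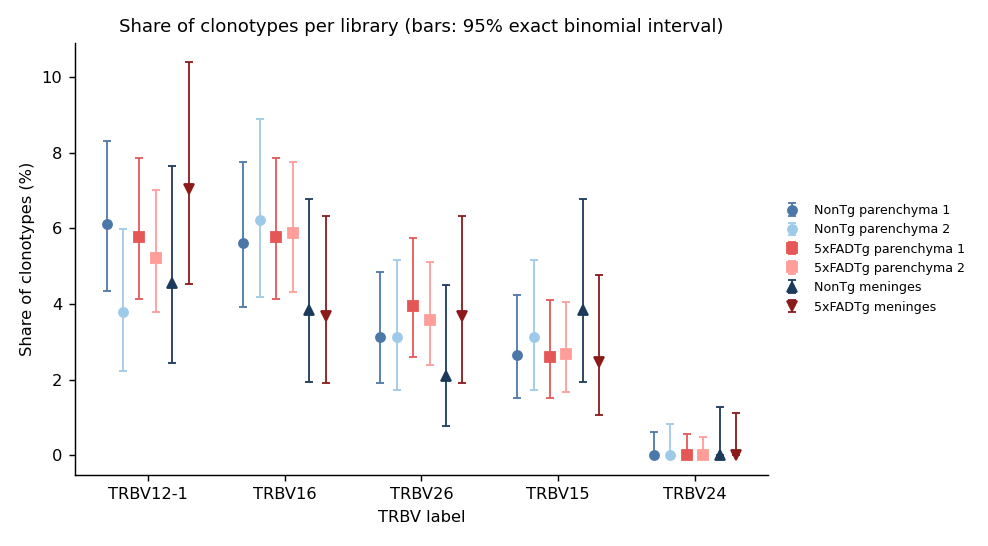
Share of clonotypes (y axis, %) with each of the 5 V labels (x axis) in the 6 libraries, with 95% exact binomial intervals. TRBV24 is at 0 in every library, and the TRBV16 shares of the meninges, 3.68% and 3.85%, lie below those of the parenchyma.

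Whether segment use differed with the amyloid transgenes was asked in the parenchyma. TRBV12-1 made up 6.11% and 3.79% of clonotypes in the NonTg libraries 1 and 2, and 5.78% and 5.23% in the 5xFADTg libraries. The NonTg values enclosed the 5xFADTg values. TRBV16 was at 5.61% and 6.24% in NonTg and at 5.78% and 5.87% in 5xFADTg, again overlapping. TRBV15 was at 2.64% and 3.12% in NonTg and at 2.59% and 2.68% in 5xFADTg, which overlapped too. TRBV26 was at 3.14% and 3.12% in NonTg and at 3.96% and 3.57% in 5xFADTg, the one member whose groups did not overlap.

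None of the 4 members tested was called between genotypes. Log2 fold changes of 5xFADTg over NonTg were 0.11 (SE 0.28) for TRBV12-1, -0.11 (SE 0.26) for TRBV15, -0.01 (SE 0.21) for TRBV16 and 0.26 (SE 0.24) for TRBV26. Adjusted p was 0.977 or above for each in edgeR's quasi-likelihood test with Benjamini-Hochberg adjustment over all 122 segments tested. Across all segments of both chains 0% were called at an adjusted p of 0.05 by edgeR, and 5 of 122 (4.1%) had an unadjusted p under 0.05, none of them a member. DESeq2 called 0 as well. Groups did not overlap for 32.8% of all segments tested, so 1 of 4 members lies near that background. The groups did not overlap with 5xFADTg higher, as for TRBV26, in 13.1% of segments. The median log2 fold change of the members was 0.05, against 0.01 over all segments.

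In the meninges TRBV16 took a smaller share than in the parenchyma, without passing the test. It was at 3.85% (95% exact interval 1.94% to 6.78%) in NonTg meninges and 3.68% (1.92% to 6.34%) in 5xFADTg meninges. Parenchyma held 5.87% ± 0.264 (SD, n = 4), lowest 5.61% and highest 6.24%, so the tissues did not overlap. The log2 fold change of meninges over parenchyma was -0.64 (SE 0.26), with an unadjusted p of 0.0375 and an adjusted p of 0.669 in edgeR over 125 segments, with genotype as covariate. Of all segments, 16.8% had tissues that did not overlap and 9.6% had meninges lower, against 1 of the 4 members for both.

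The other members were spread over both tissues. TRBV12-1 was at 4.55% in NonTg and 7.06% in 5xFADTg meninges, the former within its parenchymal range of 3.79% to 6.11% and the latter above it. TRBV15 was at 3.85% and 2.45%, and TRBV26 at 2.10% and 3.68%, in the same order. Log2 fold changes were 0.15 (SE 0.26) for TRBV12-1, 0.18 (SE 0.33) for TRBV15 and -0.23 (SE 0.31) for TRBV26, each with an adjusted p of 0.933 in edgeR. By edgeR 0% of the 125 segments were called at an adjusted p of 0.05, 7 (5.6%) had an unadjusted p under 0.05, TRBV16 among them, and DESeq2 called 0. Libraries were taken as independent in this fit although the tissues of a genotype share TRB sequences, described further on.

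The joining segments of the beta locus lie in the clusters TRBJ1 and TRBJ2, each with its own D and C segment, and TRBV16 was joined to TRBJ1 less often than the TRBV labels overall. TRBJ1 was found in 23.5% and 25.0% of TRBV16 clonotypes in NonTg parenchyma 1 and 2, and in 18.4% and 21.7% in 5xFADTg parenchyma 1 and 2. In NonTg meninges it was found in 18.2% and in 5xFADTg meninges in 25.0%. The mean was 22.0% ± 3.09 (SD, n = 6), against 35.7% ± 1.75 for the TRBV labels outside the group, whose lowest library was at 33.5%. TRBV16 was lower in 6 of 6 libraries. Of the 21 labels tested, 9.52% were below the remaining labels in all 6 libraries. The ranges of TRBV16 and of the labels outside the group did not overlap, which was not counted for other labels.

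In the fit of TRBJ1 against TRBJ2 with library as a block, TRBV16 had a log2 fold change of -0.91 (SE 0.17) and an adjusted p of 0.0071 in edgeR. It was the one label called of 21, which is 4.76%, while 28.6% had an unadjusted p under 0.05. With 5xFADTg parenchyma 1 left out, the adjusted p in edgeR was 0.073 and with 5xFADTg parenchyma 2 left out it was 0.0717, at log2 fold changes of -0.84 and -0.86. Counting cells in place of clonotypes gave -1.11 with an adjusted p of 0.276, in edgeR too.

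Single joining segments, pooled over libraries, did not all follow this division. TRBJ2-1 was in 34 of 169 TRBV16 clonotypes (20.1%), against 11.5% of clonotypes with a TRBV label outside the group. TRBJ1-1 was in 12 (7.10%), against 11.5%. TRBJ2-7 was in 34 (20.1%), near its 19.1% outside the group. TRBJ1-3, in 11 (6.51%) against 4.89%, was the one TRBJ1 segment with a higher share in TRBV16, and TRBJ2-2 (6.51% against 6.25%) and TRBJ2-5 (11.2% against 11.1%) were level.

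The remaining members varied more between libraries and were not called for TRBJ1 use. TRBV26 had TRBJ1 in 31.6% and 35.7% of clonotypes in NonTg parenchyma and in 46.2% and 64.3% in 5xFADTg parenchyma. Its meninges were at 16.7% in NonTg and 33.3% in 5xFADTg, so TRBV26 lay below the labels outside the group in some libraries and above them in others. The log2 fold change was 0.50 (SE 0.32), with an adjusted p of 0.315 in edgeR. TRBV12-1 ranged from 10.8% to 43.9% (log2 fold change -0.34, SE 0.29, adjusted p 0.472 in edgeR). TRBV15 ranged from 7.14% to 54.5% (-0.38, SE 0.43, adjusted p 0.533). TRBJ2-7 was the most used joining segment of TRBV12-1, with 42 of 169 clonotypes, and of TRBV15, with 25 of 87, while TRBJ1-1 led in TRBV26 with 17 of 105.

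**Figure D2:**
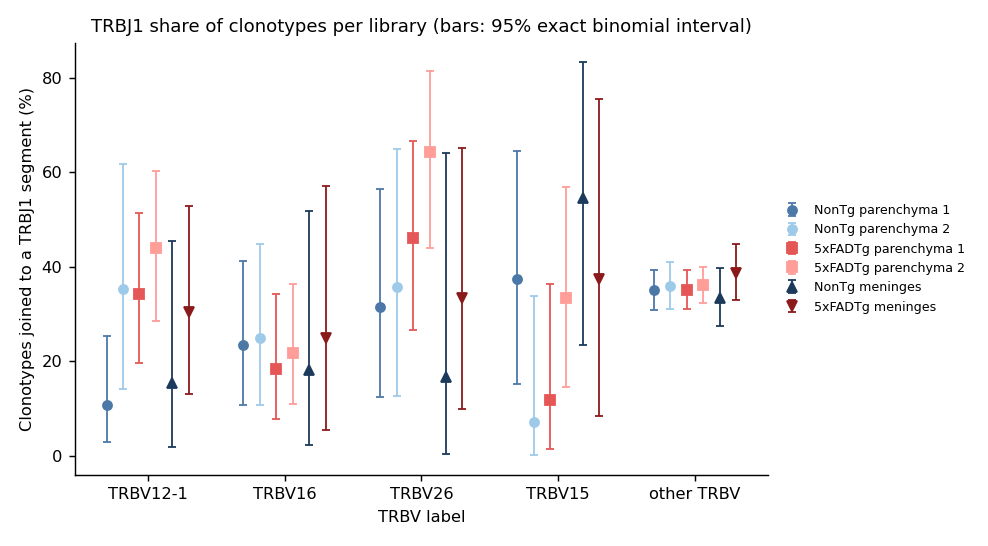
Share of clonotypes joined to a TRBJ1 segment (y axis, %) for the 4 used members and for the TRBV labels outside the group (x axis), per library, with 95% exact binomial intervals. TRBV16 lies between 18.2% and 25.0%, and the labels outside the group between 33.5% and 38.7%.

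Clonal expansion did not set the members apart from other segments. Of TRBV12-1 clonotypes 28 of 169 held 2 or more cells, of TRBV16 22 of 169, of TRBV26 19 of 105 and of TRBV15 9 of 87. These are 16.6%, 13.0%, 18.1% and 10.3%, against 13.4% of the 2578 clonotypes outside the group. The TRBV26 share ran from 0 of 6 clonotypes in NonTg meninges, a count that allows up to 3 of 6, to 32.1% in 5xFADTg parenchyma 2. TRBV15 had no expanded clonotype in either meninges library, among 11 clonotypes in NonTg and 8 in 5xFADTg, counts that allow shares of up to 27.3% and 37.5%. Expanded over 1-cell clonotypes, with library as a block, log2 fold changes were 0.36 (SE 0.31) for TRBV12-1, -0.44 (SE 0.53) for TRBV15, -0.13 (SE 0.33) for TRBV16 and 0.47 (SE 0.41) for TRBV26. Each adjusted p was 0.702 or above in edgeR, which called 1.6% of 125 segments and 0 of the 4 members, with 10.4% of segments at an unadjusted p under 0.05. The members' median was 0.11, against -0.06 over all segments.

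Counted by the TRB alone (V, J and CDR3 nucleotides, in cells with exactly 1 TRB), TRBV12-1 held more cells in large clones than the other members, and most of these were of 1 clone. Of its 424 cells 201 (47.4%) were in 7 TRB sequences of 10 or more cells, against 29.3% of cells outside the group. Without its largest clone, described below, the TRBV12-1 share was 29.7% (94 of 316), and without 5xFADTg parenchyma 2, which holds that clone, 27.1% (64 of 236), both near the share outside the group. TRBV16 had 35 of 290 cells in 1 such sequence, TRBV26 13 of 167 and TRBV15 12 of 124. The other TRBV12-1 sequences were nearly all small, with 160 of its 191 sequences in 1 cell.

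The sequences of these clones are shown because the results on the alpha chain turn on them. Each is the CDR3 of the TRB in nucleotides, from the cysteine codon on. Capitals mark bases reached neither by the germline V end nor by the germline J segment (D and added bases).
TRBV12-1 TRBJ1-1, 5xFADTg parenchyma 2: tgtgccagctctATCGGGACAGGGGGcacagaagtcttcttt
TRBV12-1 TRBJ2-7, NonTg parenchyma 2: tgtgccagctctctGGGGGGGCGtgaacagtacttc
TRBV12-1 TRBJ2-5, NonTg parenchyma 1: tgtgccagctctcCagacacccagtacttt
TRBV12-1 TRBJ2-3, NonTg parenchyma 2: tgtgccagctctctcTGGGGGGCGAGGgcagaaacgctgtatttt
TRBV12-1 TRBJ2-3, 5xFADTg parenchyma 2: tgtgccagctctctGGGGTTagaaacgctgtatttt
TRBV16 TRBJ2-1, NonTg parenchyma 1: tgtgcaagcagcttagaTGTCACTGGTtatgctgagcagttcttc
TRBV26 TRBJ2-1, 5xFADTg parenchyma 2: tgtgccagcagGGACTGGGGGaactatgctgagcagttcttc
TRBV15 TRBJ2-7, 5xFADTg parenchyma 2: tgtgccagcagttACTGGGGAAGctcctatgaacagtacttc

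The largest member clone was the TRBV12-1 TRBJ1-1 clone of 5xFADTg parenchyma 2, with 107 of 1931 cells (5.54%, 95% exact interval 4.56% to 6.66%) and 1 further cell in 5xFADTg meninges. The TRBV16 clone held 35 cells in NonTg parenchyma 1, with 2 further cells in the meninges of that genotype, and 33 of the 35 carried TRAV6D-5 with TRAJ9. The TRBV12-1 TRBJ2-3 clone of NonTg parenchyma 2 held 31 cells, 17 of them with a second productive TRA. The other TRBV12-1 TRBJ2-3 clone, in 5xFADTg parenchyma 2, held 19 cells, 18 with TRAV17 and TRAJ27. Of the 13 TRBV26 cells, 11 carried TRAV6N-7 with TRAJ12, and all 12 TRBV15 cells carried TRAV2 with TRAJ4. TRBV12-1 clones of 11 cells (TRBJ2-5, 5xFADTg parenchyma 2) and 10 cells (TRBJ1-3, NonTg parenchyma 1) completed those of 10 or more, beside the TRBJ2-7 and TRBJ2-5 clones described next.

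Pooled over libraries, TRBV12-1 cells lacked a productive TRA more often than cells of other members, but not in every library, and 3 clones made up most of that number. Of 424 TRBV12-1 cells, 162 (38.2%, 33.6% to 43.0%) had no TRA, against 16 of 124 for TRBV15, 51 of 290 for TRBV16, 21 of 167 for TRBV26 and 938 of 5390 (17.4%) outside the group. By library the TRBV12-1 share was 33.8% and 16.4% in NonTg parenchyma, 9.80% and 60.1% in 5xFADTg parenchyma, 23.5% in NonTg meninges and 11.1% in 5xFADTg meninges. The library 5xFADTg parenchyma 2 stood far above the rest. TRBV12-1 had the highest share of the members in 2 of 6 libraries, NonTg parenchyma 1 and 5xFADTg parenchyma 2, and was above the labels outside the group in 3 of 6. Over the libraries TRBV16 ranged from 11.8% to 33.3%, TRBV26 from 5.66% to 26.3%, and TRBV15 from 0 to 22.7%. In the TRBJ1-1 clone 105 of its 107 cells had no productive TRA there. Without that clone the share in its library was 9.88% (8 of 81 cells), and over all libraries 17.7% (56 of 316).

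That clone had few alpha contigs of any kind. Of its 108 cells, 7 had any TRA contig and 2 a productive one, which were 2 different chains of 1 and 3 UMIs. In the same library 87.2% of the 1824 cells with other TRB sequences had a TRA contig. The median TRB count of the clone was 6 UMIs, against 8 in those cells.

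Over all libraries there were 64 TRB sequences of 10 or more cells, with a median of 10.0% of cells without TRA. In 3 of them more than 50% of cells had none, and these 3, singled out after their values were seen, were all TRBV12-1. Beside the TRBJ1-1 clone they were the TRBJ2-5 clone of NonTg parenchyma 1, with no TRA in 11 of 11 cells, and the TRBJ2-7 clone of NonTg parenchyma 2, with none in 8 of 12. They lay in 3 different libraries of both genotypes. That all 3 were TRBV12-1 depends on the cut, because a TRBV14 sequence of 5xFADTg parenchyma 2 lay on it. That sequence had a TRA in 5 of 10 cells. Next came a TRBV29 and a TRBV19 sequence of NonTg parenchyma 1, with 41.7% and 41.4% of cells without TRA. The other 4 TRBV12-1 sequences of this size had 0 to 3 cells without TRA each. With the 3 clones left out, 36 of 292 TRBV12-1 cells (12.3%) had no TRA.

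**Figure D3:**
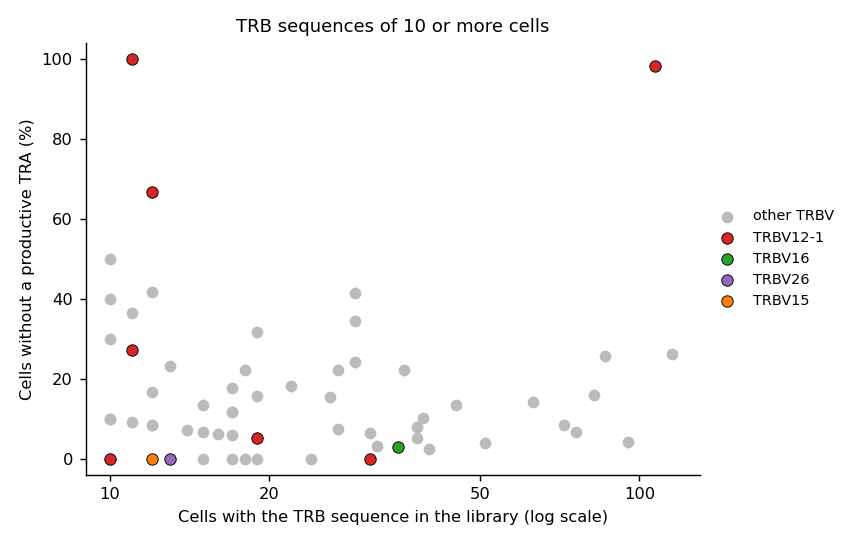
Each point is 1 of the 64 TRB sequences of 10 or more cells in a library, with its number of cells on a log x axis and the percentage of its cells without a productive TRA on the y axis. The 3 points above 50% are TRBV12-1, and the next lower point, on that cut, is TRBV14.

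Counted as distinct TRB sequences, so that a clone counted once per library on either side, no member was called for TRA absence. Log2 fold changes of sequences without over with TRA were -0.29 (SE 0.28) for TRBV12-1, -0.50 (SE 0.41) for TRBV15, 0.04 (SE 0.26) for TRBV16 and -0.46 (SE 0.38) for TRBV26. Adjusted p was 0.83 or above for each, and edgeR called 0% of the 34 TRBV and TRBJ segments, with 3 (8.82%) at an unadjusted p under 0.05, while DESeq2 called 0. Counting cells, TRBV12-1 was called at 0.92 (adjusted p 0.011 in edgeR), and without the largest clone it was at 0.03 (adjusted p 0.951). TRBV15 had a TRA in each of its 11 NonTg and 8 5xFADTg meningeal cells, counts that allow shares without TRA of up to 27.3% and 37.5%.

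Nonproductive rearrangements make no receptor and so are not selected for what it binds. TRBV15 was found among them more often than among productive ones. A rearrangement was counted once per deposited clonotype identifier, V and J within a library. TRBV15 had 4 nonproductive beside 25 productive combinations in NonTg parenchyma 1 (13.8%), 11 beside 20 in NonTg parenchyma 2 (35.5%), 15 beside 26 in 5xFADTg parenchyma 1 (36.6%) and 17 beside 34 in 5xFADTg parenchyma 2 (33.3%). In 5xFADTg meninges there were 4 beside 11 (26.7%), and in NonTg meninges 0 beside 14, which allows a share of up to 21.4%. Outside the group the share was 12.1% ± 1.13 (SD, n = 6). TRBV15 was above that mean in 5 of 6 libraries, a count not made for the other labels. In NonTg parenchyma 1 it was nearly level with the 13.2% outside the group in that library.

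Nonproductive over productive, with library as a block, TRBV15 rose by 1.40 on the log2 scale (SE 0.36, adjusted p 0.00596 in edgeR). Of the 22 TRBV labels tested 40.9% were called, 22.7% as higher and 18.2% as lower among nonproductive rearrangements, and 45.5% had an unadjusted p under 0.05, so a call was common in this comparison. With 5xFADTg parenchyma 2 left out, the value was 1.25 and the adjusted p 0.0622 in edgeR. The other members were not called, at -0.19 (SE 0.24) for TRBV12-1, -0.43 (SE 0.33) for TRBV16 and -0.38 (SE 0.47) for TRBV26, with adjusted p values of 0.605, 0.297 and 0.529.

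**Figure D4:**
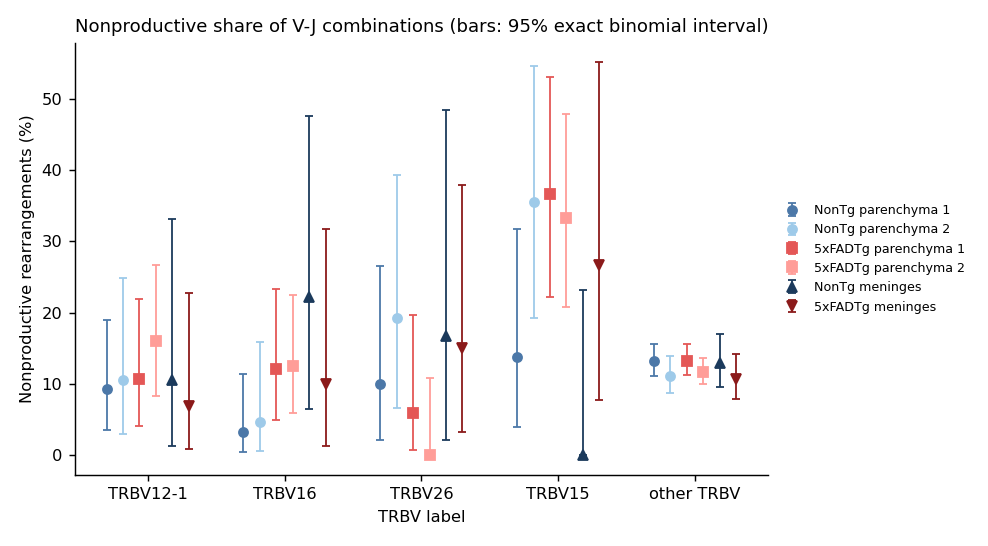
Nonproductive share of TRB rearrangements (y axis, %), each counted once per clonotype, V and J, for the 4 used members and the TRBV labels outside the group (x axis), per library, with 95% exact binomial intervals. TRBV15 lies between 26.7% and 36.6% in 4 libraries, at 13.8% in NonTg parenchyma 1 and at 0 in NonTg meninges.

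As contigs, nonproductive TRBV15 numbered 106, beside 153 productive, and 102 of the 106 lay in cells that also had a productive TRB. The 106 belonged to 50 clonotypes. In NonTg parenchyma 2, 22 of them, all joined to TRBJ1-5, came from a 94-cell clonotype whose productive chain used the joint label TRBV12-2+TRBV13-2 with TRBJ2-7. In 5xFADTg parenchyma 2, 21, all joined to TRBJ2-7, came from a 28-cell clonotype with a productive TRBV19. The median was 2 UMIs per nonproductive TRBV15 contig, against 18 per productive one. TRBV12-1 had 32 nonproductive contigs, TRBV16 30 and TRBV26 15. Their medians were 2 UMIs as well, and 28, 28 and 13 of them lay in cells with a productive TRB. Outside the group the median was 3 UMIs, against 8 per productive contig, and 752 of 848 lay in such cells.

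The number of TRB molecules captured per cell differed between members. TRBV15 cells had a median of 19 and 21 UMIs in NonTg parenchyma, 16 and 17 in 5xFADTg parenchyma, 19 in NonTg meninges and 13.5 in 5xFADTg meninges. Each was above the 7 to 9 UMIs of cells outside the group. TRBV15 was first of the 19 labels with at least 5 cells in every library, at a mean of 17.6 ± 2.65 (SD, n = 6), and TRBV16 at place 3, with 11.8 ± 1.33. Place 2 was held by TRBV17, outside the group, at 13.5 ± 2.72. Its library medians of 10 to 17 overlapped those of TRBV15. TRBV26, at 7.83 ± 1.72, and TRBV12-1, at 7.50 ± 1.38, overlapped the cells outside the group. A cell can carry more molecules or have more of them captured, and these counts do not separate the one from the other.

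**Figure D5:**
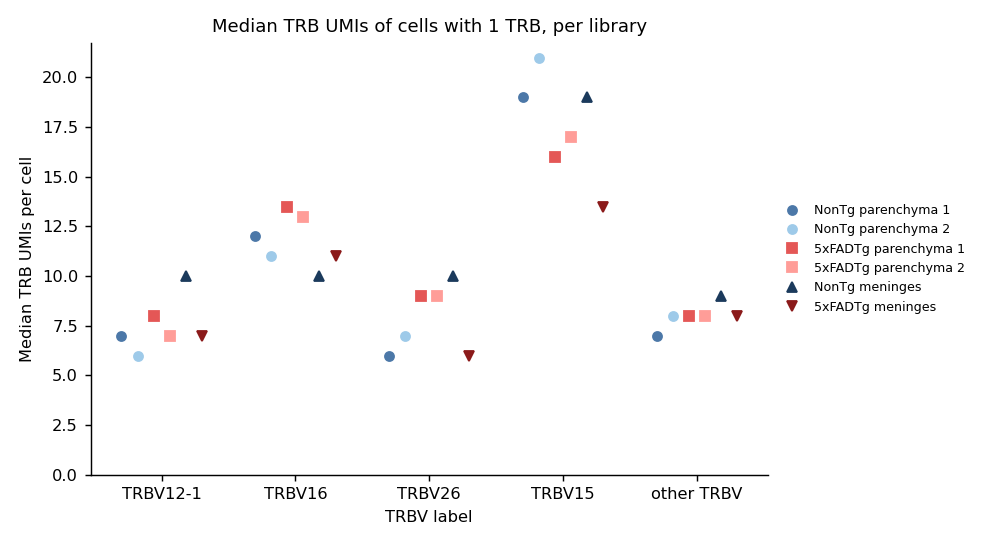
Median number of TRB UMIs (y axis) in cells with exactly 1 TRB, for the 4 used members and the TRBV labels outside the group (x axis), each point a library. TRBV15 lies between 13.5 and 21, above all points of the labels outside the group.

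TRB sequences of the members were shared between the tissues of a genotype. Of 586 distinct member sequences, 21 (3.58%) were in 2 libraries, each in parenchyma and meninges of the same genotype. None was in both genotypes or in both parenchyma libraries of a genotype. Outside the group 119 of 2941 (4.05%) were shared between tissues of a genotype and 5 between genotypes. TRBV12-1 had 8 of the 21, TRBV16 6, TRBV26 4 and TRBV15 3. The 3 largest were the TRBV12-1 TRBJ1-1, TRBV16 TRBJ2-1 and TRBV26 TRBJ2-1 clones printed above. Sharing was counted by the TRB alone, and a shared TRB did not always come with the same TRA. The shared TRBV15 TRBJ2-2 sequence had TRAV7D-5 with TRAJ15 in 5xFADTg meninges and TRAV16D-DV11 with TRAJ5 in 5xFADTg parenchyma 1. Those of TRBV15 TRBJ1-1 and TRBV16 TRBJ2-2 also differed in their main TRA between NonTg tissues, where some cells carried a second TRA.

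Seen from the meninges, 13 of 49 NonTg member sequences (26.5%, 14.9% to 41.1%) were also in NonTg parenchyma, 11 in library 1 and 2 in library 2. In 5xFADTg it was 8 of 66 (12.1%, 5.38% to 22.5%), 4 in each parenchyma library. Outside the group the shares were 25.0% and 17.0%, and the intervals of the members enclosed both. The difference between genotypes rests on 1 meningeal library each and was not tested.

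Among the other segments, the TRBV label closest to each member in share over the 6 libraries was TRBV1 for TRBV12-1 (mean absolute difference 0.913 percentage points), TRBV14 for TRBV15 (0.348), TRBV12-2 for TRBV16 (0.822) and TRBV31 for TRBV26 (0.666). TRBV12-1 and TRBV12-2 transcripts were identical at 340 of 385 bases (88.3%) without gaps, and 847 productive TRB contigs carried the joint label TRBV12-2+TRBV13-2, so TRBV12-2 counts are uncertain. TRBV12-2, of the same TRBV12 family as TRBV12-1, and the joint label were counted among the labels outside the group throughout. Alpha partners were broad. TRAV6 was the leading TRAV family of TRBV12-1 (20.7% of clonotypes), TRBV16 (19.5%) and TRBV26 (15.2%), as it was outside the group (13.7%), and TRAV12 that of TRBV15 (18.4%). Members paired with 15 to 18 TRAV families, and the labels outside the group with 19. These counts rest on 87 to 169 clonotypes per member and on 2578 outside the group, so they are not at like depth. The mean CDR3 length was 13.8 residues for TRBV15 and TRBV26, 14.1 for TRBV12-1 and 14.4 for TRBV16 over the 6 libraries, against 14.0 outside the group.

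The 4 segments known as targets of Mtv-7, TRBV13-3, TRBV17, TRBV19 and TRBV29, were used as well. They made up 7.53% ± 1.26, 2.38% ± 0.448, 7.05% ± 1.12 and 5.38% ± 1.65 of clonotypes (SD, n = 6). By edgeR 0 of 4 were called between genotypes, tissues, expanded and 1-cell clonotypes, TRA absence and TRBJ clusters. Their median log2 fold change was 0.16 between genotypes, against 0.05 for the members, and 0.00 between tissues, against -0.04. Among nonproductive rearrangements 1 of the 4 was called higher and 2 lower. Over all 22 labels of that fit, 22.7% were called higher and 18.2% lower, so calls were common there.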

How the data were processed

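The deposited files list each assembled receptor contig with its V, D, J and C labels, CDR3 sequence, productive status, clonotype identifier and raw counts of reads and UMIs, with no normalization, per the file headers. Cell Ranger 6.0 and the mouse build mm10 are named in the submitters' processing notes, and what filters came after is not given in the sources used here. The members, lists and tests were chosen with earlier results of these data known.

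Clonotypes, TRB sequences or V-J combinations were counted per segment. The test was edgeR's quasi-likelihood F test (version 4.0.16, in R 4.3.3), with the number of units per library as library size, segments of at least 10 units, Benjamini-Hochberg adjustment over all segments of a fit and a threshold of 0.05. TRAV copies named with a D or N were merged with their near-identical partner. Standard errors were derived as |log2 fold change| / sqrt(F). Genotype was fitted on the 4 parenchyma libraries without covariate, tissue on 6 libraries with genotype, and contrasts within libraries with library as a block. The fits were also run on simulated counts with known fold changes, drawn with a fixed dispersion, more segments and independent libraries. That setting differs from the data, so the run checks the code only. Shares carry 95% exact (Clopper-Pearson) intervals, and a count of 0 is given with a limit of 3 counts. Positions and germline bases are those of GENCODE M21. Python 3.11.15 with pandas 2.3.3, scipy 1.17.1 and matplotlib 3.10.9 made the other tables and figures.

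Segments described were all 5 members in each comparison, the Mtv-7 list, the label closest to each member, member clones of 10 or more cells and the 3 largest shared clones. Alternatives were cells or TRB sequences as unit, at least 2 UMIs, expansion from 3 cells, 1-cell sequences only, contigs, DESeq2 1.42.0, TMM factors, a replicate block, all segments without the minimum count, and each library left out. Leaving out the TRBV12-1 clones mostly without TRA, or the library of the largest, was added after the data were seen. So was testing the difference between genotypes in the tissue contrast.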

Additional observations from a re-analysis of the deposited data

Results flagged for a closer look

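For each of the 4 used members and 4 shares (of clonotypes, of clonotypes with TRBJ1, of clonotypes that were expanded, and of cells without TRA), meninges were compared with the parenchyma libraries of the same genotype. In 4 of these 16 cases both differences had one sign in NonTg and the opposite sign in 5xFADTg. This count was not made for the other TRBV labels, so it has no background share and is not read as a trait of the members. The TRBV15 share of clonotypes was higher in NonTg meninges by 0.967 percentage points and lower in 5xFADTg meninges (-0.18), a difference of -1.15 between genotypes. Tested as an interaction of genotype and tissue, the log2 difference for TRBV15 was -0.53 (SE 0.55, adjusted p 0.986 in edgeR, 0 of 125 segments called). The share of TRBV16 clonotypes with TRBJ1 was lower in NonTg meninges (-6.08) and higher in 5xFADTg meninges (4.92), a difference of 11.0 points. The share of TRBV16 cells without TRA was lower in NonTg meninges (-3.93) and higher in 5xFADTg meninges (14.3), a difference of 18.3 points. Expanded clonotypes were more frequent among TRBV16 clonotypes of NonTg meninges (11.3) and less frequent in 5xFADTg meninges (-10.5), a difference of -21.8 points. These 3 differences of TRBV16 were not tested, and the meninges hold 11 and 12 TRBV16 clonotypes in 1 library per genotype.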

How the results depend on the processing

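The number of libraries limits every comparison: 2 per genotype in parenchyma and 1 in meninges. Counts of called segments moved by over 1.5 times as follows. Between genotypes, 3 were called with cells as unit, against 0. Between tissues, 2 were called with at least 2 UMIs, against 0. For expansion, against 2, TMM factors gave 5, DESeq2 and expansion from 3 cells 1 each, TRB sequences 0, and leaving out a library 1 to 2. For TRA absence, against 0, cells gave 1 and leaving out a library 0 to 1. For TRBJ, against 1, cells gave 0, TRB sequences 6 and leaving out a library 0 to 1. The cause of these changes was not tested. For nonproductive rearrangements counts stayed within 1.5 times of 9, at 7 to 11.

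The labels do not say what the library number of the parenchyma stands for. The correlation of the deviations of same-numbered libraries was 0.04 across 122 segments, which cannot show whether they share a batch. With the replicate block 0 segments were called between genotypes. The log2 fold changes changed sign as follows, uncalled both times unless stated. Between genotypes, TRBV12-1 was at -0.37 with cells, -0.075 with TRB sequences and -0.15 to 0.53 with a library left out, TRBV15 at 0.17 with cells, and TRBV16 at 0.013 with DESeq2, 0.042 with TRB sequences and -0.10 to 0.055 with a library left out. Between tissues, TRBV12-1 was at -0.00012 with cells and -0.16 to 0.36 with a library left out, TRBV15 at -0.10 to 0.43 likewise and TRBV26 at 0.027 with TRB sequences. For expansion, TRBV12-1 was at -0.17 from 3 cells, and TRBV16 at 0.20 with TRB sequences and -0.30 to 0.045 with a library left out. For TRA absence, TRBV12-1 was at 0.92 with cells, which was called, and 0.029 with cells without its largest clone, and TRBV16 at -0.024 with TMM factors, -0.0021 with DESeq2 and -0.092 to 0.23 with a library left out. For TRBJ, TRBV26 was at -0.016 with cells. TRBV16 kept a negative value for TRBJ under all 10 alternatives, from -1.11 to -0.84, and TRBV15 a positive one for nonproductive rearrangements, from 1.22 to 1.81.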
